A study of Mus musculus with 8 samples.

Results

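G9a occupancy after G9a was put back into cells without GLP was compared with G9a occupancy in wild-type cells, using the ChIP-seq peak list of each. The members were all peaks on the 19 autosomes, 67077 wild-type and 83433 rescue peaks, or 150510 of the 174428 peaks of the series over its 5 lists. Both libraries came from TT2, a mouse embryonic stem cell line from a cross of a C57BL/6 female with a CBA male. The wild-type sample was TT2 itself. The rescue sample was TT2 with G9a and GLP both knocked out and wild-type G9a reintroduced; its label names no GLP given back, so these cells lacked GLP by label. The same anti-G9a antibody was used for both. Proteins were crosslinked first with DSG (2 mM, 45 min) and then with formaldehyde (1%, 10 min), and chromatin was sheared to 150 to 300 bp. Neither the promoter that drove the returned G9a, nor the number of clones, nor the amount of G9a protein is stated in the labels. The series also holds 3 Ezh2 lists, used below as another readout. Of these, 2 came from wild-type TT2 (library 0 and library 1) and 1 from TT2 with G9a and GLP both knocked out. For the Ezh2 libraries formaldehyde (1%, 10 min) is given and no DSG, so their crosslinking differed from that of the G9a libraries. The 3 input libraries were not analysed here.

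G9a (gene Ehmt2) and GLP (Ehmt1) are closely related SET-domain enzymes that add methyl groups to lysine 9 of histone H3. In embryonic stem cells they act mainly as a heteromeric complex, and both are needed for most dimethylation of that residue in euchromatin. Each also carries ankyrin repeats that bind methylated lysine 9, so the complex can both write and read its mark. The comparison addresses where G9a is found on chromatin when its partner is missing. Each group had 1 library, so no test between them was possible and all values describe these 2 lists. Intervals are 95% Wilson intervals for shares and binomial intervals for medians; they cover counting error among peaks only, and neighbouring peaks are not independent.

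The lists give each peak a position on the mm9 genome build and a score from the authors' peak caller, MACS, which is 10 times the negated log10 of its p. Both lists began at a score of 20, which is a MACS p of 0.01. Their scores were distributed differently above that floor. Peaks scoring under 30 made up 45.9% of the wild-type and 61.05% of the rescue list, so more of the rescue list lay near the floor. The wild-type median was 31.7 and the rescue median 26.9, and 7196 wild-type but 3055 rescue peaks reached 100. A higher score within a list means a stronger call, but the scale depends on sequencing depth, which the lists do not give. Scores were therefore turned into percentile ranks within each list (100 is the highest), and the lists were compared by rank, position and width. Ranks put only the scores on one footing. Peak numbers, widths and sharing were not adjusted for depth, and its part in them was not tested.

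Peak density differed between the lists along whole segments of the genome, so the comparison was made with and without them. The segments, on mm9, were chromosome 1, chromosome 8, chromosome 11 beyond 110 Mb, chromosome 6 from 120 to 130 Mb and chromosome 13 from 110 to 120 Mb. They held 14786 wild-type peaks (22.04% of the list) and 8302 rescue peaks (9.95%). Outside them 52291 wild-type and 75131 rescue peaks remained, a count ratio of 1.44 rescue to wild type, against 1.24 over all autosomes. The direction depended on the score: the ratio over all autosomes turned to 0.616 among peaks scoring at least 50 and to 0.425 among those scoring at least 100.

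Outside the segments the count ratio lay in one continuous range. In the 212 blocks of 10 Mb with at least 50 wild-type peaks it ran from 0.604 to 3.61, with a median of 1.47 and quartiles of 1.24 and 1.92. Every block of the segments fell outside that range. All 20 blocks of chromosome 1 (0.159 to 0.582), all 14 of chromosome 8 (0.156 to 0.431) and both of distal chromosome 11 (0.150 and 0.173) were below it. The blocks on chromosomes 6 and 13 were above it, at 5.40 and 6.76. These segments were chosen for their density, so the contrast is a description. Both lists moved on chromosomes 1 and 8: the median block held 425.5 and 373 wild-type peaks there, against 225.5 outside the segments, while it held 105 and 97.5 rescue peaks against 340.

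**Figure D1:**
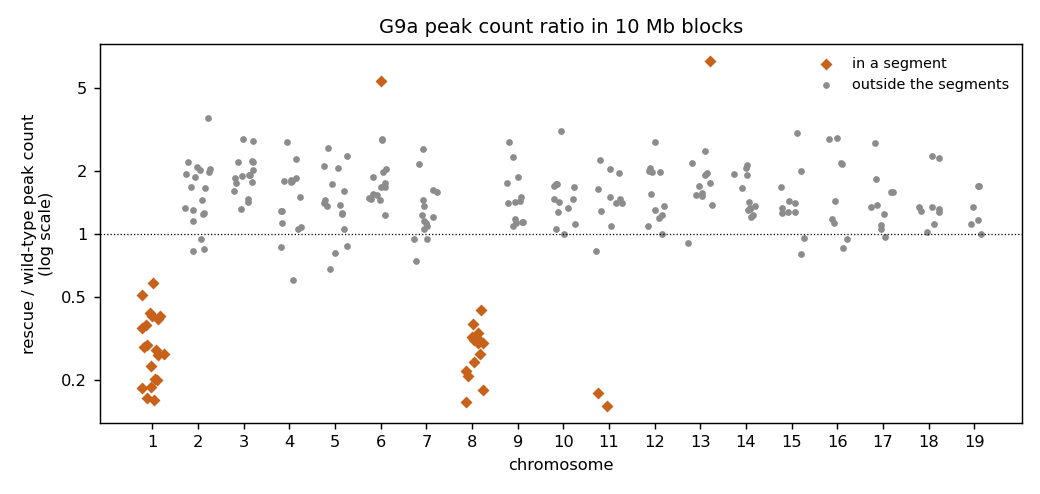
Ratio of rescue to wild-type G9a peak counts in each 10 Mb block of the autosomes (log axis), with 1 point per block and blocks of under 50 wild-type peaks left out. Blocks of the segments (diamonds) lie below 0.604 on chromosomes 1, 8 and 11 and above 3.61 on chromosomes 6 and 13, beyond the range of the other blocks (circles).

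The edges of the narrower segments were then read in 1 Mb windows. On chromosome 11 the loss of rescue peaks began before 110 Mb. From 98 to 105 Mb the lists held 366 wild-type and 517 rescue peaks, a ratio of 1.41. From 105 to 110 Mb they held 289 and 80 (0.277), and from 110 Mb to the end 604 and 103 (0.171). On chromosome 6 the rise began 1 Mb before the block, with 23 wild-type and 100 rescue peaks from 119 to 120 Mb, and from 130 to 136 Mb the counts were back to 129 and 164. On chromosome 13 the excess was concentrated in the 4 windows from 112 to 116 Mb, with 223 wild-type and 1845 rescue peaks, a ratio of 8.27. The 8 windows before them had a ratio of 2.20. In the 5 windows after them, to 121 Mb, the ratio was 4.11, from 37 wild-type and 152 rescue peaks. Moving the bounds to 105 Mb on chromosome 11 and 119 Mb on chromosome 6, a choice made after seeing these counts, left the remaining list ratio at 1.44.

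**Figure D2:**
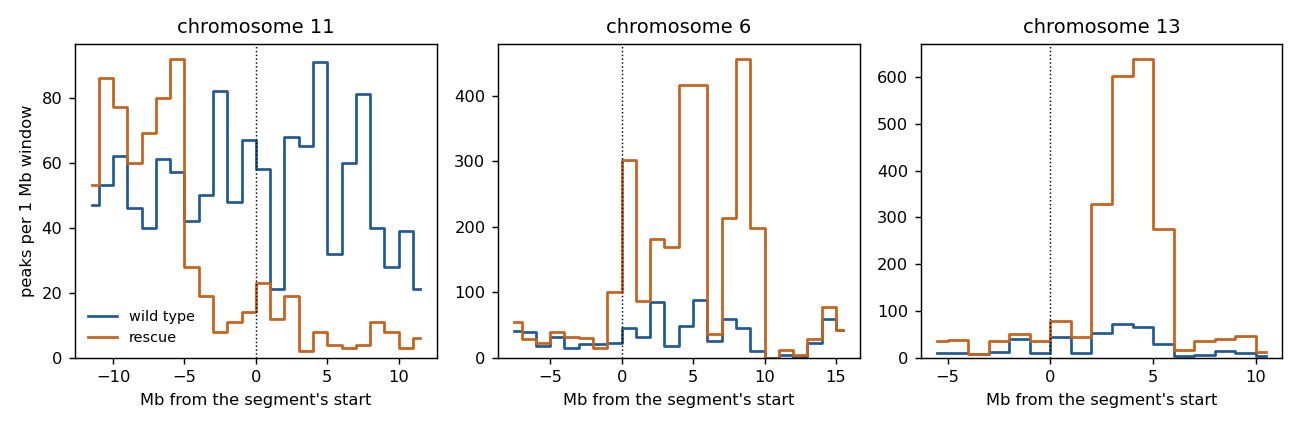
Number of G9a peaks in each 1 Mb window around the start of the segments on chromosomes 11, 6 and 13 (dotted line at 0), in the wild type and the rescue. Rescue counts drop 5 Mb before the chromosome 11 start, rise 1 Mb before the chromosome 6 start, and on chromosome 13 reach 639 peaks in 1 window where the wild type had 66.

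A minority of each list overlapped the other. Over all autosomes 21396 wild-type peaks (31.9%; 31.55 to 32.25) overlapped a rescue peak by at least 1 bp. In reverse, 22719 rescue peaks (27.2%; 26.9 to 27.5) did. Without the segments the wild-type share was 36.6% (19128 peaks; 36.2 to 37.0) and the rescue share 27.1% (20368; 26.8 to 27.4). The order of these shares followed the list lengths: with the rescue list cut to its 52291 strongest peaks outside the segments, 32.2% of wild-type and 33.7% of rescue peaks were shared. Over the 17 chromosomes with peaks outside the segments, the wild-type share ran from 32.8% on chromosome 5 to 40.9% on chromosome 11 (36.5 ± 2.25, SD over chromosomes, which are not replicates). The rescue share ran from 22.8% on chromosome 3 to 29.3% on chromosome 11.

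Sharing rose steadily with score in both lists. Peaks of higher score were also wider, and a wider peak meets the other list more easily, so score was not separated from width here. Outside the segments, 16.1% of the lowest 10% of wild-type peaks by score were found in the rescue, 31.75% of those in the sixth group of 10 and 83.6% of the top 10% (4373 of 5229). For rescue peaks found in the wild type the values were 10.96%, 21.5% and 74.7% (5611 of 7513). With the segments included, the top 10% reached 76.0% and 70.0%. When equal numbers of top-scoring peaks were set against each other, most of the strongest peaks were not in the matching set. Of the 1000 strongest wild-type peaks outside the segments, 286 (28.6%) overlapped one of the 1000 strongest rescue peaks, and of the 5000 strongest, 1946 (38.9%) did.

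Strong sites outside the segments included places that both lists ranked near the top. The pair of highest mean rank lay on chromosome 15 from 72398211 to 72400165 in the wild type (score 1603.24, width 1955 bp) and from 72398089 to 72399735 in the rescue (1578.81, 1647 bp). The second was on chromosome 4, from 139813675 to 139816366 in the wild type (score 1465.54) and from 139814165 to 139815957 in the rescue (1104.68). The rest of the first 5 were at chromosome 4 from 152172781 (wild-type score 1355.23, rescue 1335.5), chromosome 14 from 64331351 (1391.81 and 1014.18) and chromosome 4 from 139838344 (1594 and 884.37). In 4 of these 5 pairs the rescue peak was the narrower, with width ratios of 0.554 to 0.843, and on chromosome 14 it was wider (1.23). No gene is assigned to any position, because no annotation of the mm9 build was used here.

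Peaks were narrower in the rescue. Over all autosomes the median width was 615 bp in the wild type (quartiles 458 and 931) and 458 bp in the rescue (356 and 641). Outside the segments the medians were 589 bp and 450 bp, and the ratio of medians lay between 0.720 and 0.790 on each of the 17 chromosomes. Chromosome 11 had the widest peaks in both lists, at 847 bp and 610 bp outside its distal segment, against medians over the chromosomes of 574 bp and 440 bp. On every one of these chromosomes the rescue median was the smaller. In covered length the lists were close outside the segments, with 39.1 Mb in the wild type and 40.6 Mb in the rescue. Thus 1.44 times as many rescue peaks covered about as much of the genome.

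Width followed score in both lists, and between groups of the same rank the difference was larger among strong peaks. Outside the segments the median width in the lowest 10% by score was 404 bp in the wild type and 335 bp in the rescue, a ratio of 0.829. In the top 10% it was 1397 bp and 967 bp, a ratio of 0.692. The ratio lay between 0.690 and 0.845 in all 10 groups. Groups of the same rank had unlike scores, with medians of 163.6 and 79.85 in the top 10%. With each list outside the segments cut to its 50000, 20000, 5000 or 1000 strongest peaks, the ratio was 0.869, 0.794, 0.754 and 0.664. Over all autosomes it went from 0.781 at 50000 to 0.656 at 1000, so the difference grew with strength there too. Only at a common score minimum over all autosomes did it not grow, and raw scores of the lists are not on one scale. Median widths were 1064 and 932 bp at a score minimum of 50, and 1440 and 1295 bp at 100. The median width ratio at peaks shared 1-to-1 rose from 0.858 to 0.904 and 0.926. Shared peaks were wider than the others in both lists, with medians of 766 bp against 525 bp in the wild type and 631 bp against 410 bp in the rescue.

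**Figure D3:**
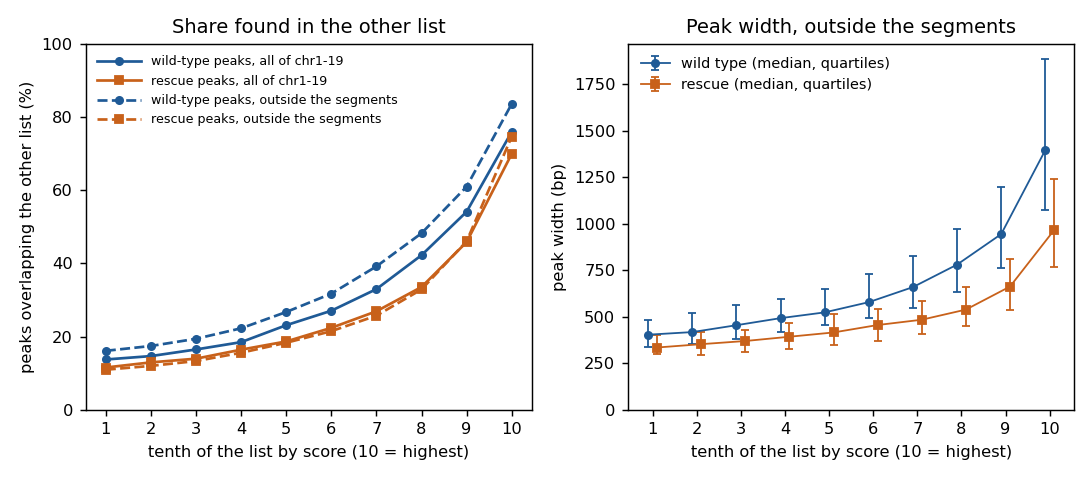
Left, share of peaks overlapping the other list in each of 10 groups of a list by score, for the wild type and the rescue, with all autosomes (solid) and without the segments (dashed). Right, median peak width with quartiles in the same groups outside the segments. The shares rise from 16.1% to 83.6% in the wild type and from 10.96% to 74.7% in the rescue, and rescue medians lie below wild-type medians in every group.

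Shared sites were next compared pair by pair. In 17476 pairs each peak overlapped exactly 1 peak of the other list; 15573 of them lay outside the segments. Over all autosomes the median width was 756 bp in the wild type and 641 bp in the rescue, and the median ratio within a pair was 0.858 (0.849 to 0.867), with quartiles of 0.607 and 1.16. The rescue peak was the narrower in 11067 pairs (63.3%). Outside the segments the median ratio was 0.873 (0.864 to 0.881) and 62.5% were narrower. The whole lists gave a ratio of medians of 0.764 there, with rescue-only peaks, the narrowest class at 410 bp, included. At equal numbers of peaks the ratio was 0.874 between the lists (589 and 515 bp) and 0.901 within 13846 pairs.

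How the width ratio changed with strength depended on the list used to order the pairs. Ordered by wild-type score, the median ratio over all autosomes fell from 1.20 in the lowest 10% to 0.646 in the top 10%. Ordered by rescue score it rose from 0.630 to 1.17. Ordered by the mean rank of the pair it stayed between 0.834 and 0.894 in all 10 groups, with no steady rise or fall. A trend with the score of 1 list therefore did not hold when both scores were used.

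**Figure D4:**
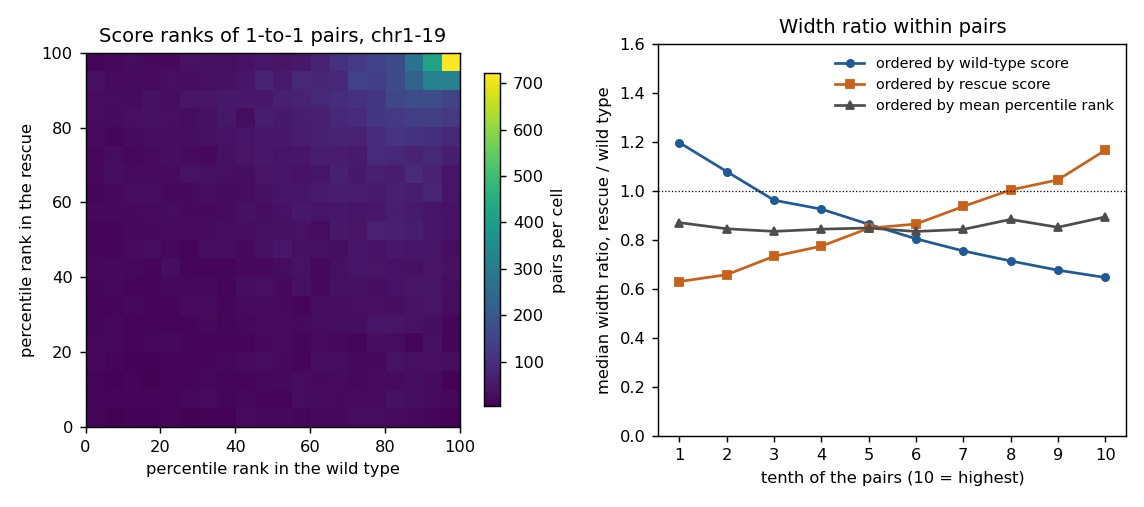
Left, number of 1-to-1 pairs by percentile rank of the wild-type peak and of the rescue peak, in cells of 5 by 5 points. Right, median width ratio (rescue to wild type) in 10 groups of pairs ordered by wild-type score, rescue score or mean rank; the ratio falls from 1.20 to 0.646, rises from 0.630 to 1.17, and stays between 0.834 and 0.894.

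Partners overlapped for much of their length with shifted edges. In pairs over all autosomes the peak centres lay a median of 143.5 bp apart (quartiles 61.5 and 277). The overlap took up a median of 57.9% of the stretch covered by either peak, and a median of 98.3% of the shorter one. The rescue peak lay wholly inside the wild-type peak in 5513 pairs (31.5%), the reverse held in 2489 (14.2%), and 9474 (54.2%) were staggered. Several partners in the other list were more frequent for wild-type than for rescue peaks. Of the wild-type peaks with a partner, 2200 (10.3%) overlapped 2 or more rescue peaks, while 1077 rescue peaks (4.74%) overlapped 2 or more wild-type peaks. At equal list lengths the shares were 9.40% and 4.99%.

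Single sites at the extremes of width and of number of partners, picked for those traits, are given as examples. The widest wild-type peak of the list, on chromosome 7 from 71091568 to 71103884 (12317 bp, score 675.03), was 1 of 4 that held 5 rescue peaks, which covered 5945 bp in all. Another of those 4, on chromosome 10 from 95179655 to 95184743, had a wild-type score of 1093.73, and the highest of its 5 rescue peaks scored 68.51. The widest wild-type peak in a pair, on chromosome 1 from 121289257 to 121298470, spanned 9214 bp with a score of 1127.62; its rescue partner spanned 2038 bp with a score of 23.64. The widest rescue peak in a pair, on chromosome 11 from 8481221 to 8488123 (6903 bp), had a wild-type partner of 7390 bp, and both ranked above the 99th percentile.

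Ranks at shared sites were related but loosely. Over the 17476 pairs the Spearman correlation of the scores was 0.302, and over the 15573 outside the segments it was 0.330, with 0.269 to 0.395 on single chromosomes. It is a correlation across peaks, which share their 2 libraries and are not independent replicates. Among pairs of similar wild-type width it was lower for narrow peaks than for wide ones, from 0.0779 in the narrowest 10% to 0.421 in the widest 10% outside the segments. Ranks differed by at most 25 points in 9125 of those pairs (58.6%). They were more than 25 points higher in the rescue in 3671 (23.6%) and more than 25 points lower in 2777 (17.8%). With the segments included the values were 22% and 19.8%. The excess of rises went with the longer rescue list, in which shared peaks had a median rank of 75.9 against 70.3 in the wild type. At equal list lengths outside the segments rises made up 19.8% and falls 21.0%, so no direction is read from these counts.

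The top of the wild-type list stayed high in the rescue where it was called at all. Of the 5229 wild-type peaks in the top 10% outside the segments, 46.6% overlapped a rescue peak that was also in its top 10%; of the 7513 such rescue peaks, 33.6% did so in reverse. Over all autosomes the values were 38.1% (37.0 to 39.3) and 31.7%. The top 10% of the lists differ in number, and at equal list lengths the shares were 39.05% and 39.7% outside the segments and 34.0% and 34.7% over all autosomes. In pairs outside the segments, wild-type peaks of the top 10% had rescue partners at a median percentile of 91.6. Wild-type peaks of the lowest 10% had partners at a median percentile of 60.5, against 75.9 over all rescue peaks in pairs.

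Some strong peaks nonetheless sat at opposite ends of the lists. The largest fall in rank was on chromosome 11 from 107212371 to 107216511, where the wild-type peak scored 375.51 over 4141 bp and the rescue peak 20.14 over 951 bp. This position lies between 105 and 110 Mb, where rescue peaks were already sparse. The next fall was on chromosome 12 from 88142419 to 88145024, where the wild-type score was 336.44 and the rescue score 20.19. In the other direction, the peak on chromosome 2 from 112683116 to 112683655 scored 20.03 in the wild type, and its rescue partner scored 151.83. On chromosome 19 the wild-type peak from 28752135 to 28752699 scored 20.03 and its partner 133.66. All 5 of the largest falls had rescue peaks of at most 0.363 times the wild-type width, and all 5 of the largest rises had rescue peaks at least 1.49 times as wide. Score and width come from the same reads, so these are not separate signs of change.

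The strongest peaks of each list without a partner within 1 kb were then listed outside the segments. In the wild type the first was on chromosome 4 from 127020979 to 127026698 (5720 bp, score 1048.65), with the nearest rescue peak 8408 bp away. It was followed by chromosome 10 from 60687160 to 60690464 (569.58) and from 75110242 to 75113928 (466.07). In the rescue the first was on chromosome 10 from 28862154 to 28863438 (1285 bp, score 288.11), with the nearest wild-type peak 53001 bp away. Next were chromosome 13 from 22131874 to 22132938 (257.85) and chromosome 3 from 8507514 to 8509870 (251.54). The 5 strongest such peaks of each list had their nearest peak of the other list 2861 to 13125 bp away in the wild type and 5021 to 69264 bp away in the rescue.

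That difference in distance held for the unshared peaks as a whole. Outside the segments, 33163 wild-type-only peaks lay a median of 4770 bp from the nearest rescue peak, and 51.2% were within 5 kb of one. The 54763 rescue-only peaks lay a median of 10654 bp from the nearest wild-type peak, and 34.1% were within 5 kb. Beyond 100 kb the shares were 0.745% and 7.94%. A longer list offers more places to be near, and the rescue list was the longer one, so the 2 distances are not on an equal footing.

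Spacing within each list was compared by the gap from the end of a peak to the start of the next. Outside the segments the median gap was 9600 bp in the wild type (9389 to 9804) and 9836 bp in the rescue (9698 to 10009), even though the rescue had 1.44 times as many peaks. Gaps under 1 kb made up 18.6% of the wild-type and 15.5% of the rescue gaps, and gaps over 100 kb made up 8.42% and 5.11%. The wild-type median was 0.247 of the mean gap and the rescue median 0.364. At equal numbers, with the 52291 strongest rescue peaks, the rescue median gap was 13210 bp, which was 0.339 of its mean, and 14.3% of gaps were under 1 kb. Gaps over 100 kb then made up 9.07%, above the wild-type 8.42%, so the difference in long gaps turned round while that in short gaps did not.

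Peaks in close runs were shared more often than lone ones. Outside the segments, 12.2% of wild-type and 9.24% of rescue peaks stood in runs of 3 or more with gaps under 1 kb. In the wild type, 50.9% of the peaks in such runs were found in the rescue, against 31.75% of peaks with no neighbour within 1 kb. In the rescue the shares found in the wild type were 52.75% and 20.4%. The longest run held 11 wild-type peaks, and the longest of the other list held 9.

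Inside the segments the median rescue gap stood further from its value outside than the median wild-type gap did. Wild-type median gaps lay between 6522 and 9326 bp in the 5 segments, against 9601 bp outside. The wild-type mean gap differed more, at 23081 bp over the segments against 38873 bp outside, and gaps over 100 kb made up 3.87% against 8.42%. Rescue median gaps were 42624 bp on chromosome 1, 46354 bp on chromosome 8 and 47133 bp on distal chromosome 11. They were 801 bp in the chromosome 6 block and 515.5 bp in the chromosome 13 block, where 68.3% of gaps were under 1 kb. Over the 5 segments the longest run with gaps under 1 kb held 53 rescue peaks, against 10 wild-type peaks.

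**Figure D5:**
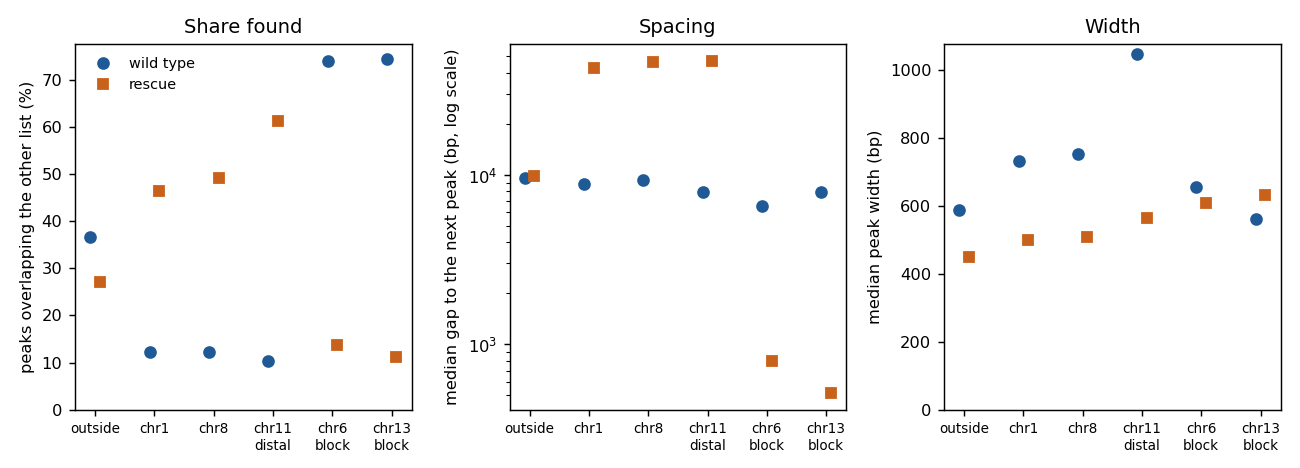
Share of peaks overlapping the other list, median gap to the next peak (log axis) and median peak width, outside the segments and in each of the 5 segments, for the wild type (circles) and the rescue (squares). Wild-type gaps stay between 6522 and 9601 bp while rescue gaps run from 515.5 to 47133 bp, and the rescue median width exceeds the wild-type one in the chromosome 13 block alone.

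Shared peaks were about equally many in the lists within a segment, for example 1003 wild-type and 1049 rescue peaks on chromosome 1 and 339 and 340 in the chromosome 6 block. The shares therefore follow from the counts by which the segments were picked. On chromosomes 1 and 8 and distal chromosome 11, 12.2%, 12.2% and 10.3% of wild-type peaks had a rescue partner, while 46.4%, 49.0% and 61.2% of the rescue peaks had a wild-type one. In the chromosome 6 and 13 blocks the order was turned round: 74.0% and 74.4% of wild-type peaks had a partner, against 13.7% and 11.1% of rescue peaks.

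The segments differed in rank and width too. Rescue peaks of the chromosome 6 and 13 blocks had median percentiles of 75.02 and 80.3 in their list, and 24.9% and 32.3% of them were in its top 10%. Wild-type peaks of the same blocks had medians of 51.65 and 52.8. On chromosomes 1 and 8, wild-type peaks ranked near the middle (47.7 and 47.3) but were wide, at 733 bp and 753 bp against 589 bp outside. Distal chromosome 11 had the widest wild-type peaks of the segments, at 1048 bp, against 564 bp in the rescue. In the chromosome 13 block the rescue median of 632.5 bp exceeded the wild-type 562.5 bp, and in the other segments it was the smaller.

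Single strong peaks without a partner are given with their percentile rank in their own list, since raw scores of the lists are not on one scale. On chromosome 1 the strongest in the wild type, from 154937570 to 154945087, spanned 7518 bp at percentile 99.91, and the strongest in the rescue, from 153236920 to 153237841, spanned 922 bp at 99.26. On chromosome 8 the percentiles were 99.89 (wild type, from 12543786 to 12549740) and 97.46 (rescue, from 68127086 to 68128064), and on distal chromosome 11 they were 99.78 (from 114437330 to 114443117) and 88.55 (from 115675223 to 115676296). In the chromosome 13 block the order was reversed, with 92.19 for the wild-type peak (from 112321735 to 112322609) and 99.92 for the rescue peak (from 114371450 to 114375057). In the chromosome 6 block both were high, at 99.53 for the wild-type peak (from 122417497 to 122421886, 4390 bp) and 99.72 for the rescue peak (from 123281478 to 123284112, 2635 bp), although rescue peaks were 5.40 times as many there. Strong shared sites were present all the same: on distal chromosome 11 the pair of highest rank lay at percentile 99.82 in the wild-type list (from 118443758 to 118449156) and 99.91 in the rescue list (from 118445697 to 118447271).

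Ezh2 peak numbers were read in the same segments. The knockout cells in which Ezh2 was profiled lacked both G9a and GLP by label, while the rescue cells had G9a put back. Outside the segments the knockout Ezh2 list had 1.14 times as many peaks as wild-type Ezh2 library 0 and 0.5496 times as many as library 1. On chromosome 1 the values were 0.843 and 0.304, on chromosome 8 they were 1.62 and 0.613, and on distal chromosome 11 they were 2.15 and 0.977. The chromosome 6 block had 25 peaks in library 0, 77 in library 1 and 25 in the knockout (ratios of 1 and 0.325), and the chromosome 13 block had 25, 41 and 8 (0.320 and 0.195). The wild-type Ezh2 libraries differed from each other along the same segments: library 1 had 2.08 times as many peaks as library 0 outside them, 2.78 times on chromosome 1, 2.64 on chromosome 8, 2.20 on distal chromosome 11, 3.08 in the chromosome 6 block and 1.64 in the chromosome 13 block. The Ezh2 lists did not begin at the same score: 30 in library 1, 43.02 in library 0 and 43.03 in the knockout. Counts and overlaps with library 1 are therefore at a lower score floor than those with the other lists. By title, library 0 and the knockout carry the same number, 0, and library 1 does not. With 1 knockout library, no segment's Ezh2 ratio is read as a difference from the rest. The input libraries were not analysed here, and their part in these densities was not tested.

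Ezh2 is the Polycomb enzyme that methylates lysine 27 of histone H3, and few G9a peaks of any class held one of its peaks. The Ezh2 lists were short beside the G9a lists, with 5425 peaks in library 0, 11766 in library 1 and 6198 in the knockout over all chromosomes. Their length limits the share of G9a peaks that can hold one, and the share of Ezh2 peaks within G9a peaks is not given here. Outside the segments, 3.11% of shared wild-type peaks (2.87 to 3.37) and 1.88% of wild-type-only peaks (1.73 to 2.03) overlapped a peak of wild-type Ezh2 library 1. For the rescue the values were 2.90% of shared and 2.24% of rescue-only peaks. With Ezh2 library 0 the 4 classes lay between 0.383% and 0.523%, and with the knockout Ezh2 library between 0.351% and 0.507%. Shared peaks were also the wider ones. Among wild-type peaks over 400 and up to 700 bp the share with Ezh2 library 1 was still 3.05% for shared and 1.83% for wild-type-only peaks, but among rescue peaks of that width it was 2.17% and 2.65%.

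Ezh2 overlap was higher among strong than among weak rescue peaks, and with Ezh2 library 1 the contrast was smaller in the wild type. Outside the segments, 4.67% (4.22 to 5.17) of rescue peaks in the top 10% by score held a peak of Ezh2 library 1, against 1.87% of those in the lower 50%. For wild-type peaks the values were 2.66% (2.26 to 3.13) and 2.21% (2.04 to 2.39), and over all autosomes 3.22% and 2.32%. With Ezh2 library 0 the values were 0.825% and 0.322% in the rescue, and 0.402% and 0.474% in the wild type. With the knockout Ezh2 library they were 0.785% and 0.309%, and 0.440% and 0.432%. Strong peaks were also wider, with medians of 967 bp against 368 bp in the rescue and 1397 bp against 460 bp in the wild type. Score was not separated from width here. Sharing with the other list itself rises with score, so the classes were also read apart for library 1. Of rescue peaks, 4.71% of shared and 4.57% of rescue-only peaks in the top 10% held one, against 2.27% and 1.81% in the lower 50%. Of wild-type peaks the shares were 2.79% and 1.99% in the top 10% against 3.23% and 1.95% in the lower 50%. The widest rescue-only peaks, 579 over 1200 bp, held one in 8.64% of cases (6.61 to 11.2), and the 1973 wild-type-only peaks of that width in 2.28% (1.71 to 3.04). Over all autosomes the contrast was smaller, at 5.996% of 1084 rescue-only and 3.495% of 4607 wild-type-only peaks. Shared peaks of that width outside the segments held one in 6.72% of cases in the rescue and 3.59% in the wild type. With the knockout Ezh2 library, shared and unshared peaks of the top 10% gave 0.802% and 0.736% in the rescue. They gave 0.480% and 0.234% in the wild type, the last from 2 of 856 peaks. The difference between the G9a lists was not tested, as each is 1 library.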

How the data were processed

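Chromatin bound by G9a in 1 wild-type and 1 rescue library was read from the peak lists the authors deposited. Bowtie 0.12.7, MACS 1.4 and mm9 are named in the submitters' processing notes, without a call threshold. Each deposited score is the authors' MACS value, and the other deposited columns used are peak positions in bp. Per the series' design text, pooled wild-type inputs were the control; whether the rescue list used another is not stated. Depth is unknown from the lists. Libraries were amplified with 15 PCR cycles, per the labels' protocols.

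Peaks on chromosomes 1 to 19 were used and positions are printed 1-based. A peak was in a segment when its centre was. For values outside the segments, both lists were cut to those peaks and ranked again. Regions were named by rule: highest mean rank, largest rank change with 1 peak in its top 10%, highest score with no partner (none within 1 kb outside the segments), widest, and most partners held. The reference tables used the GRCm38 build, so no gene or sequence was taken from them. Members, segments and lists were chosen with earlier results of these data known. Alternatives were overlap of 50% of the shorter peak, a 1 kb gap, score minimums of 50 and 100, equal list lengths, merging within 1 kb, equal numbers per 10 Mb block, and all chromosomes. Python 3.11.15, numpy 2.4.6, pandas 2.3.3, scipy 1.17.1 and matplotlib 3.10.9 were used, and the procedures were tested on simulated data.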

Additional observations from a re-analysis of the deposited data

How the results depend on the processing

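No paired analysis was possible because each group had 1 library, and no replicate could be left out. All 11 alternatives kept the median width ratio at shared peaks below 1, between 0.8458 and 0.9261. The wild-type share found ranged from 18.51% to 43.22% and the rescue share from 24.32% to 44.93%, and the wild-type share was the higher in 6 of 10 alternatives. Of 137 alternative values, 47 stayed within the interval of the reported one, 88 moved and 2 reversed. The causes were not tested. Equal list lengths outside the segments, given beside the results they turn, were chosen after seeing the data.

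In what follows, the shares found are of wild-type and then rescue peaks, and the top shares are of top 10% wild-type peaks with a top 10% rescue partner and then the reverse. Requiring overlap of 50% of the shorter peak gave shares found of 28.66% and 24.32%. Counting gaps up to 1 kb as shared gave 43.22% and 36.75%, a width ratio of 0.8458 and top shares of 40.79% and 33.86%. In this alternative an Ezh2 peak up to 1 kb from a G9a peak also counted as held, which can only raise the overlap of the G9a lists with Ezh2. Ezh2 overlap then lay between 0.835% and 1.135% for library 0 (wild-type shared 1.121% and unshared 0.835%, rescue 1.135% and 0.9684%). It was 4.539%, 3.282%, 4.637% and 3.432% for library 1 and 1.024%, 1%, 1.076% and 0.8812% for the knockout, in the same order. 

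A score of at least 50 gave shares found of 27.34% and 44.93%, a width ratio of 0.9036, top shares of 18.23% and 29.37%, median widths of 1064 and 932 bp, median gaps of 32014 and 57414 bp, and a count ratio reversed to 0.6155. A score of at least 100 gave 18.51% and 43.47%, 0.9261, a wild-type top share of 13.75%, widths of 1440 and 1295 bp, gaps of 91450 and 246810 bp, a count ratio of 0.4245 and a rank correlation of 0.2228. Ezh2 overlap there was 1.877%, 0.1535%, 1.883% and 1.795% for library 0 and 1.577%, 0.1705%, 1.431% and 1.737% for the knockout. For library 1 it moved to 7.658% for shared wild-type, 7.605% for shared rescue and 8.396% for rescue-only peaks.

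Equal list lengths gave shares found of 29.45% and 30.9%, a width ratio of 0.8794, top shares of 33.97% and 34.71%, a rescue median width of 497 bp, a rescue gap of 10895 bp and 2.332% of rescue-only peaks with Ezh2 library 1. Equal numbers per 10 Mb block gave 32.8% and 34.3%, 0.8785, and 33.49% and 34.08%. Merging within 1 kb gave a wild-type share of 33.18%, a ratio of 0.8777, top shares of 41.63% and 34.09%, widths of 659 and 470 bp and gaps of 14631 and 14041 bp.

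Without the segments the wild-type share was 36.58%, the width ratio 0.8727, the top shares 46.57% and 33.64%, the widths 589 and 450 bp, the rescue gap 9836 bp, the count ratio 1.437 and the Ezh2 library 1 overlap 3.111% and 1.876% of shared and unshared wild-type peaks. With the segment bounds widened after seeing the data these were 36.72%, 0.8734, 46.74% and 33.64%, 588 and 450 bp, gaps of 9628 and 9846 bp, and 1.442.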

Other observations

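Chromosomes X and Y, left out above, carried 239 and 2 wild-type peaks and 286 and 2 rescue peaks. Blocks of 10 Mb outside the segments with under 50 wild-type peaks numbered 8, with ratios of 1.5 to 6.17. Among the others the rescue had fewer peaks than the wild type in 19 of 212. The wild-type list reached a narrowest peak of 139 bp and a widest of 12317 bp, and the rescue list 154 and 7716 bp. Inside the segments 16.4% of rescue peaks in runs of 3 or more were found in the wild type, against 36.0% of lone ones, the reverse of the order outside the segments (52.75% and 20.4%).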
